A study of Mus musculus with 6 samples.

Results

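B cells that carried Ms4a1, the gene of CD20, and in which the recombinase gene Rag1 was not detected were described among CD45+ cells of inflamed mouse joints. The cells were chosen by their UMI counts of 9 genes. A cell belonged to them when the deposited counts held at least 1 unique molecular identifier (UMI) of Ms4a1 and at least 1 of Cd79a, and 0 of Rag1, of Csf1r, of Vpreb1, Igll1 and Dntt together, and of Mki67 and Top2a together. These conditions were met by 2105 of 32953 cells, or 6.39% (Wilson 95% interval 6.13 to 6.66%), and the cells are called Ms4a1 B cells here. They made up 33.5% of the 6283 cells with a Cd79a UMI. Male C57BL/6 mice, bought at 8 weeks of age, received 10 μg methylated bovine serum albumin (mBSA) under the skin in complete Freund's adjuvant, and antigen-induced arthritis (AIA) was set off on day 21 by 100 μg mBSA injected into the knee. From day 21 mice were injected intraperitoneally with phosphate-buffered saline (PBS, 2 samples) or with 300 μg of the peptide PEPITEM (4 samples), and all 6 samples carried the arthritis. Joints of the lower limbs were taken on day 3 after the challenge and digested with collagenase at 37 °C, and CD45+ cells were sorted for droplet sequencing.

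Barcodes ended in a number from 1 to 6, and no label tied these numbers to PBS or PEPITEM samples. The numbers are therefore called libraries 1 to 6, of unknown treatment, and no treatment effect was computed. Because the libraries mix both treatments, a spread between them is not replicate error, and values are given as the lowest, median and highest library, with no test. The 6 libraries held 47273569 to 123367661 UMIs over all cells. Wilson intervals on shares cover counting error in these cells only. A barcode sequence occurred in more than 1 library 138 times, 15 of these with an Ms4a1 B cell in a library and 0 with one in both.

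B cells arise in bone marrow, where precursors express the recombinase genes Rag1 and Rag2 and a surrogate light chain until a complete antibody can be shown on the surface. Newly formed cells carry IgM and the immature marker Cd93, leave the marrow, and gain IgD, the low-affinity IgE receptor CD23 (Fcer2a), MHC class II and lymph node homing receptors as they become mature follicular cells. The labels do not say whether a cell came from the synovium or from marrow of the dissected joints.

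The markers given for these cells were abundant in them. Ms4a1, which the rule itself required, stood at 1141 UMIs per 1000000 UMIs of the population (CPM), against 0.268 CPM in T cells (Cd3e at least 1, Cd79a 0 and Csf1r 0; 1003 cells). Fcmr, which encodes the Fc receptor for IgM, stood at 439 CPM (0.178 in T cells). Bank1, a scaffold of B cell receptor signaling, stood at 1879 CPM (1.43 in T cells). Tnfrsf13c, the receptor for the survival factor BAFF, was at 262 CPM (1.07) and Klhl14, a B cell adaptor of ubiquitin ligases, at 449 CPM (0.446). Ranked by fold over all other cells with 10 CPM added, Ms4a1 was number 1 (55.8-fold), Bank1 number 2 (42.6-fold), Fcmr number 3 (27.6-fold), Klhl14 number 10 (18.6-fold) and Tnfrsf13c number 19 (13.5-fold). The lambda constant gene Iglc2 (26.3-fold), the desaturase gene Scd1 (22.8-fold), Iglc1 (22.0-fold), Agbl1 (20.4-fold), the IgD constant gene Ighd (18.9-fold) and Cd79a (18.7-fold) filled the other ranks down to 10. These folds describe cells that the same counts had chosen. On GRCm38 (mm10) the markers lie at chr19:11249675-11266241 (Ms4a1), chr1:130865669-130880791 (Fcmr), chr3:136053363-136326066 (Bank1), chr15:82221743-82224369 (Tnfrsf13c) and chr18:21550377-21654718 (Klhl14), each a protein-coding gene.

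At the edge of the rule, 263 Ms4a1 B cells (12.5%) had exactly 1 Ms4a1 UMI, 238 had 2, and 1389 (66.0%) had at least 4. The median was 6 Ms4a1 UMIs, the highest 42, and the median of Cd79a was 13. Just outside it, 716 cells met every other condition with 0 Ms4a1 UMIs, and their median depth was 5141.5 UMIs against 4945 in cells at 1 Ms4a1 UMI and 5736.5 in cells at 2 or more. Another 274 cells failed on Rag1 alone (104 of them with 1 UMI), 241 on the cycling genes alone (116 with 1 UMI), 97 on Csf1r alone, 53 on Cd79a alone and 43 on the surrogate light chain genes and Dntt alone.

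Markers of other lineages were scarce, with 1 exception. The 6 T cell markers summed to 8.13 CPM in Ms4a1 B cells (0.845 to 30.3 between libraries, Cd3d the most abundant at 2.24) and to 1946 CPM in T cells. The 4 NK cell markers summed to 2.98 CPM with Klrb1c at 0, the 4 markers of plasmacytoid dendritic cells to 9.92 and the 3 hemoglobin genes to 4.55. Of the 5 monocyte and macrophage markers (452 CPM in all), Lyz2, which neutrophils also express, gave 442 and C1qa 0.820, and without the cells with neutrophil or plasma cell RNA the 5 summed to 26.7 CPM with Lyz2 at 18.2. The exception was neutrophil RNA, at 21484 CPM over 5 markers, and it sat in few cells (63.7 CPM without them). Just 98 cells (4.66%) had 50 or more UMIs of S100a8 and S100a9, the calprotectin genes, and they held 99.8% of all such UMIs in Ms4a1 B cells.

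These 98 cells carried a median of 1867.5 S100a8 and S100a9 UMIs and a median total of 13257.5 UMIs, against 5547 in the other Ms4a1 B cells, and 92.9% of them also had Ngp or Retnlg, genes of neutrophil granules and of the mature neutrophil. They held B cell transcripts as well, with means per cell of 6.57 Pax5 UMIs against 7.43 in the others. Cd79a was at 12.8 against 13.7 UMIs and Vpreb3 at 2.41 against 4.62. Mean Ighm UMIs were 45.6 against 31.1, but both means include cells rich in Jchain, 1 of them among the 98. The 8 Jchain cells held 34.9% of the Ighm UMIs of all Ms4a1 B cells, so the Ighm means say little about the other cells. Libraries 1 to 6 held 15, 44, 4, 6, 7 and 22 of the 98 cells. The same threshold was passed by 1.69% of T cells, by 1.43% of the Rag1 B lineage cells used for comparison and by 13.0% of the cells that failed on Ms4a1 alone. The deposited table had already passed the authors' removal of ambient RNA and of doublets, and S100a8 was stored as an explicit 0 in 83.9% of Ms4a1 B cells. Whether these were cell pairs was not tested. Values said to be without both sets leave out these 98 cells and 8 cells rich in the plasma cell gene Jchain, described with the antibody genes, and keep Rag1 cells and T cells whole.

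**Figure D1:**
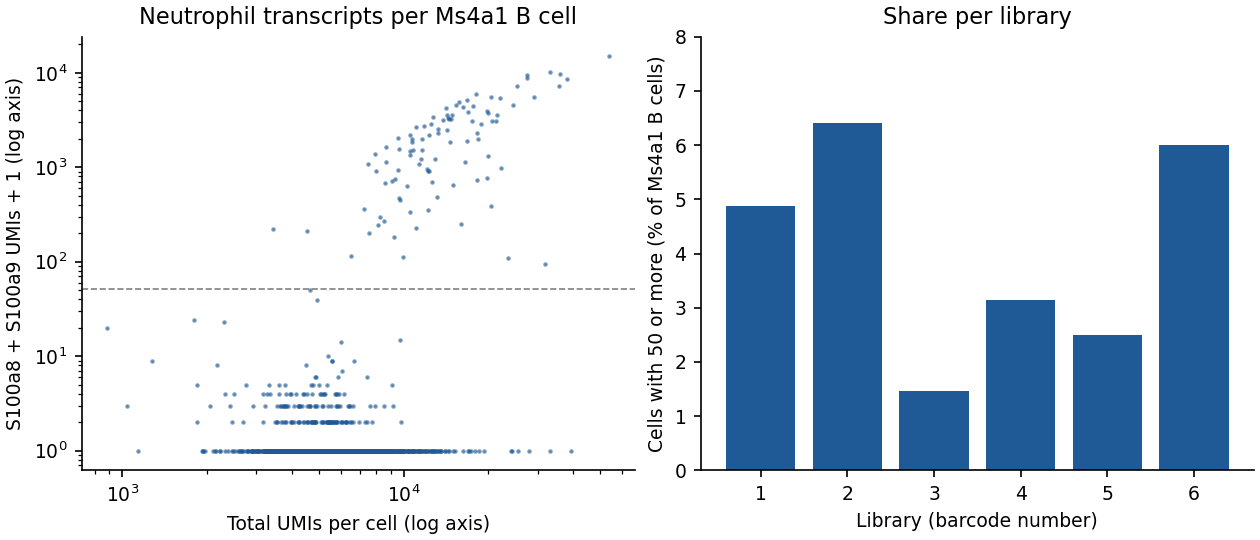
Neutrophil transcripts in Ms4a1 B cells. Left, each point is 1 of 2105 cells, with its total UMIs and its S100a8 plus S100a9 UMIs (1 added) on log axes, and the dashed line marks 50 UMIs; right, bars give the percentage of Ms4a1 B cells at or above that line in each library, from 1.47% in library 3 to 6.41% in library 2. Above the line lie 98 cells, 78 of them at 500 UMIs or more, and 7 cells lie between 10 and 49 UMIs, so few cells are near the line on either side.

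The share of Ms4a1 B cells among CD45+ cells was uneven between libraries. It was 9.18% in library 1, 11.8% in library 2, 9.35% in library 3, 4.78% in library 4, 3.01% in library 5 and 4.87% in library 6. Library 2 was the highest and library 5 the lowest. The counts behind these shares were 307, 686, 273, 191, 281 and 367 cells, of 3345, 5809, 2919, 3996, 9345 and 7539 in all. Cells that expressed Rag1 (Cd79a at least 1, Rag1 at least 1, Mki67 and Top2a 0, Csf1r 0; 1681 cells, 5.10% of all) served as the recombining B lineage beside them. The ratio of Ms4a1 B cells to Rag1 B lineage cells was 2.33, 1.02, 2.90, 1.91, 0.715 and 1.26 in libraries 1 to 6, so library 2, with the largest share of Ms4a1 B cells, had near equal numbers of both, and library 5 had more Rag1 cells. Median depth per Ms4a1 B cell was 5646 UMIs over 2184 genes, between 4307 UMIs in library 5 and 6461 in library 1, and 12159.5 in all other cells.

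**Figure D2:**
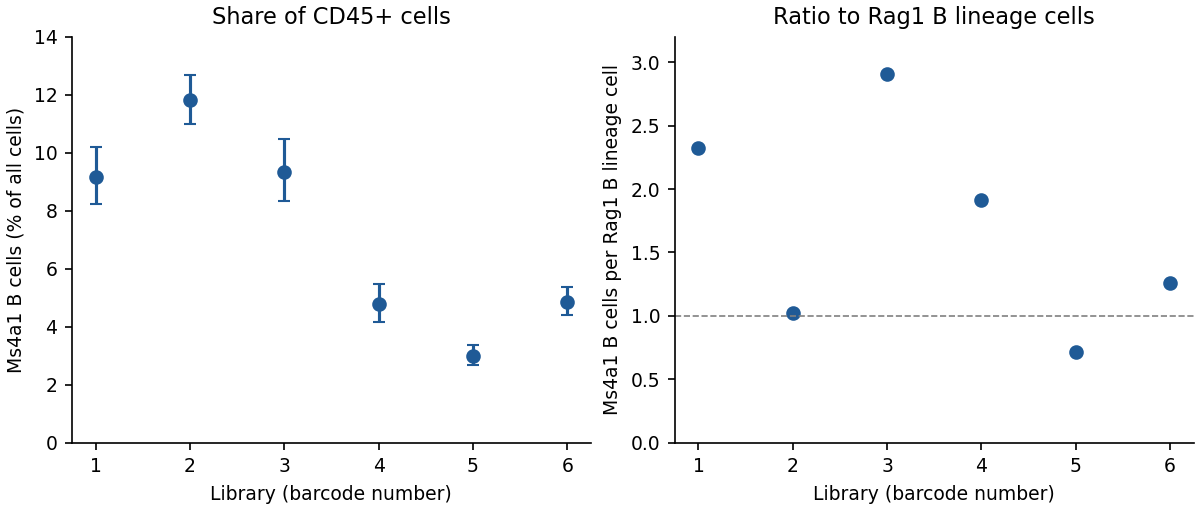
Ms4a1 B cells in each library of unknown treatment. Left, points give the percentage of all cells with Wilson 95% intervals, from 3.01% in library 5 to 11.8% in library 2; right, points give the number of Ms4a1 B cells per Rag1 B lineage cell, from 0.715 in library 5 to 2.90 in library 3, and the dashed line marks equal numbers.

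Set beside Rag1 B lineage cells, Ms4a1 B cells carried less of the early program and more of the mature one. Of 3977 genes at 50 CPM or more in either population, 22.2% were higher in Ms4a1 B cells in every library and 32.3% were lower in every library, which is the background for the counts that follow; the median log2 ratio of all these genes was -0.08. The rule itself parted the populations by Rag1, Vpreb1, Igll1 and Dntt, and it asked for Ms4a1, which the Rag1 cells did not need to carry, so all of this is description. All 12 early and immature genes on the list were lower in each of the 6 libraries (median log2 ratio -2.22). Rag2, the partner of the recombinase gene that the rule used, was at 1.19 CPM against 56.8. Sox4, a transcription factor of early lymphoid cells, was at 166 against 1039.6 CPM, and Myb, a factor of progenitors, at 85.8 against 528. Il7r, the receptor for the growth factor of B cell precursors, was at 48.8 against 527 CPM. Vpreb3, which takes part in assembly of the early receptor, was still at 709 CPM in Ms4a1 B cells and at 2603 in Rag1 cells, and Cd93 was at 65.9 and 234 CPM.

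Of 13 mature follicular genes, 12 were higher in every library and 0 lower (median log2 ratio 1.68). Fcer2a was at 151 CPM (130.2, 144 and 177 as the lowest, median and highest library) against 4.08 in Rag1 cells. Ighd was at 328 CPM (299, 319.8 and 365) against 93.7. Cxcr5, the receptor that guides B cells into follicles, was at 205 CPM (191, 207 and 243) against 22.4. No library of Ms4a1 B cells fell as low as the highest library of Rag1 cells for these 3 genes, which reached 6.80, 103 and 35.4 CPM there. The complement receptor gene Cr2 (CD21) was at 72.3 against 4.48 CPM. The exception was Klf2, a regulator of lymphocyte trafficking, at 977 against 1115 CPM and higher in 3 of 6 libraries.

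The 9 genes of MHC class II presentation were all higher in each of the 6 libraries (median log2 ratio 3.30). H2-Aa, an antigen-presenting chain, was at 1698 CPM (1156, 1778 and 2003 over libraries) against 127 in Rag1 cells. Cd74, the invariant chain that escorts class II molecules, was at 7135 CPM (5704, 7339 and 8554) against 697. Ciita, the master activator of these genes, was at 73.6 against 10.7 CPM, and H2-DMb2, a part of the peptide-loading complex, at 217 against 11.6. In T cells H2-Aa was at 235 and Cd74 at 580.4 CPM.

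Homing receptors were uneven. Higher than in Rag1 cells in every library were 7 of 10, among them the chemokine receptor gene Ccr7 (459 against 173 CPM), Ccr6 (56.4 against 0.995) and Gpr183, a receptor for oxysterols (139 against 16.5). S1pr1, the receptor for sphingosine 1-phosphate that lymphocytes use to leave tissue, was at 167 against 131 CPM and higher in every library. Lower in every library were S1pr4 (37.7 against 62.1 CPM) and the integrin gene Itga4 (248 against 356). Cxcr4, a marrow retention receptor, was at 255 against 319 CPM and lower in 5 of 6 libraries.

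The antigen receptor machinery was present in both populations. Of 15 genes of the receptor and its coreceptors, 7 were higher and 3 lower in every library, and 11 and 3 without both sets of cells, Cd72, Btk, Cd79a and Plcg2 being the genes gained; over all genes 25.0% were then higher and 30.6% lower. The inhibitory receptor gene Cd22 was at 163 CPM against 39.5 in Rag1 cells, and Ptpn6, the phosphatase SHP-1 that such receptors recruit, at 292 against 65.7. The adaptor gene Blnk (657 against 1903 CPM), the kinase gene Syk (784 against 1357) and Cd79b (1046 against 1373) were lower. Among 13 B lineage transcription factors 2 were higher and 5 lower in every library. Ebf1, which specifies the lineage, was at 4940.2 against 13341 CPM, and Bach2, which holds back plasma cell fate, at 3185 against 9297. Pax5, the guardian of B cell identity, was at 1160.1 against 1392 CPM and lower in 5 of 6 libraries, and Pou2f2 (Oct-2) was higher at 351 against 153. The receptors for BAFF and APRIL gave 262 against 160.1 CPM (Tnfrsf13c) and 118 against 78.3 (Tnfrsf13b), both higher in every library, while Tnfrsf17, the receptor of plasma cells, was at 2.01 CPM and at 0.0853 without both sets of cells.

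Among 12 genes of germinal centers and activation, 6 were higher than in Rag1 cells in every library and 0 lower. The costimulatory ligand gene Cd86 was at 429 CPM (310.3, 476 and 599 over libraries) against 32.5, Nr4a1, which antigen receptor signals induce, at 332 against 61.0, and Myc at 51.1 against 8.66. The germinal center gene S1pr2 was at 0.895 CPM (0.597 without both sets). Digestion at 37 °C can induce immediate-early genes, and 4 of 8 such genes were also higher in every library, with Junb at 789 against 307 CPM and Fos at 260.1 against 85.5. Their part in the activation genes was not tested. Of 7 cytokine genes, Ltb, which builds lymphoid tissue, was at 272 against 73.4 CPM, Tgfb1 was lower at 332 against 454, and Il10 and Il6 were at 1.86 and 3.28 CPM (0.938 and 3.67 without both sets). Interferon-stimulated genes summed to 164 CPM (435 in T cells), with 2 of 8 higher than in Rag1 cells in every library, or 1 without both sets, where Isg15 was lost. Of 10 cell cycle genes that the rule did not use, 2 were higher and 2 lower.

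Genes of marginal zone and B-1 cells were mostly low. Of 10 such genes 3 were higher and 3 lower than in Rag1 cells in every library. Cd5, a marker of B-1 cells, stood at 6.71 CPM in Ms4a1 B cells and at 168 in T cells, and Spn (CD43) at 6.79 CPM (4.95 without both sets). Dtx1, a Notch target of marginal zone cells, was at 108 CPM and Cd1d1 at 23.8. Cd9, a tetraspanin gene, was at 110.2 CPM over all cells and at 20.5 without both sets, so most of its counts lay in those few cells.

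PEPITEM is made from 14-3-3ζ by B cells that receive adiponectin signals, so the genes of that route were listed too. In Ms4a1 B cells Ywhaz, which encodes 14-3-3ζ, was at 401 CPM (352, 413 and 437 as the lowest, median and highest library), against 372 in Rag1 cells and 367 in T cells. The adiponectin receptor genes Adipor1 and Adipor2 were at 66.8 and 70.8 CPM (47.2 and 67.1 without both sets), and Appl1, the adaptor of these receptors, at 77.2. Spns2, a transporter of sphingosine 1-phosphate, was at 21.0 CPM, against 16.6 in Rag1 cells and 0.714 in T cells. The gene of the sphingosine kinase Sphk1 and Cdh15, the gene of a cadherin put forward as a binding partner of PEPITEM, had UMIs in 0 of 2105 cells, which allows a share of up to 0.143% of cells with a UMI. Of these 7 genes 1, Adipor2, differed from Rag1 cells the same way in all libraries (70.8 against 95.6 CPM). Without both sets Adipor1 was also lower and Appl1 higher in every library. Rag1 cells were kept whole there, with 1.43% of them at 50 or more S100a8 and S100a9 UMIs. The ranges of Ywhaz over libraries overlapped, 352 to 437 against 313 to 431 CPM.

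**Figure D3:**
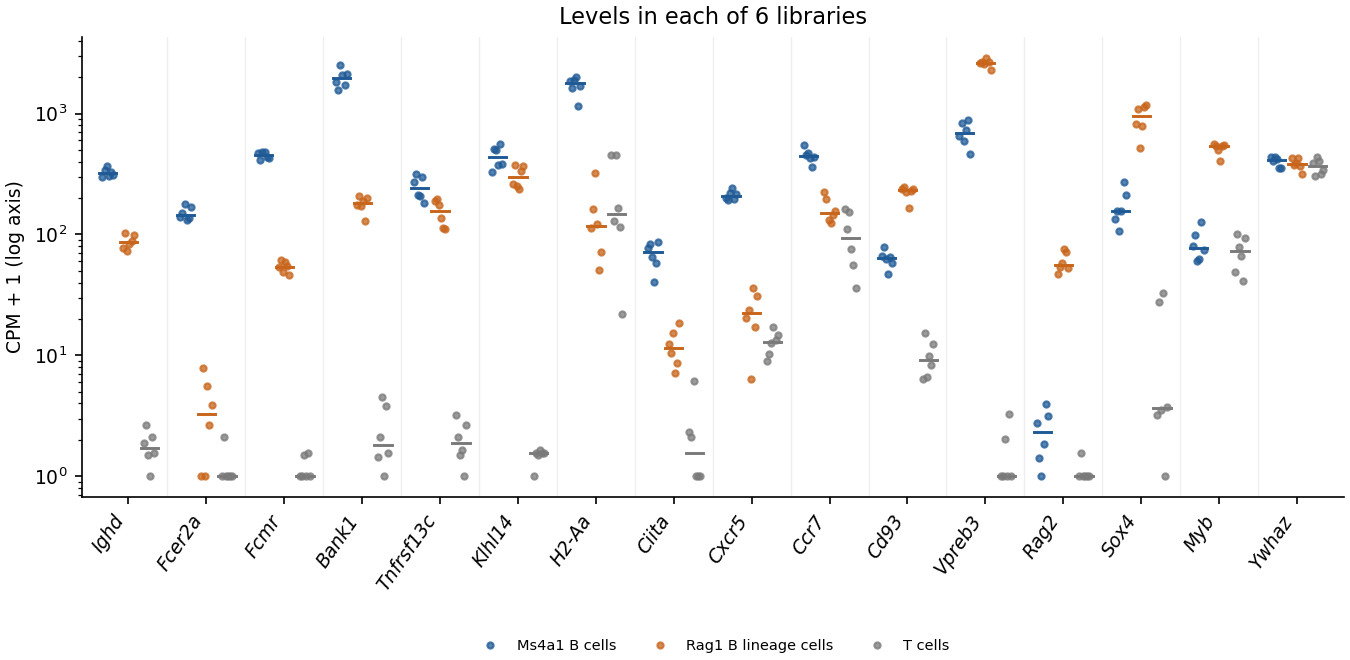
Levels of 16 listed genes in Ms4a1 B cells, Rag1 B lineage cells and T cells. Each point is 1 of 6 libraries of unknown treatment, in CPM with 1 added on a log axis, and each bar the median; Ighd, Fcer2a, Fcmr, Bank1, H2-Aa, Ciita and Cxcr5 show no overlap between Ms4a1 B cells and Rag1 cells, with Ms4a1 B cells higher, Cd93, Vpreb3, Rag2, Sox4 and Myb none with Rag1 cells higher, and Ywhaz overlaps in all 3 populations.

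Nearly all Ms4a1 B cells carried IgM transcripts. Ighm was detected in 99.5% of them and in 37.2% of T cells, or in 96.4% and 13.8% with every cell thinned to 2000 UMIs. Ighd was detected in 66.1% (Wilson 95% interval 64.1 to 68.1%), between 57.7% and 70.7% over libraries. T cells, with a median of 9522 UMIs, showed Ighd in 0.897%, and after thinning the shares were 42.8% and 0.301%, with 11 Ms4a1 B cells and 6 T cells left out for fewer UMIs. Both isotypes were detected in 1390 cells (66.0%), Ighm without Ighd in 705 (33.5%) and neither in 8. Transcripts of 4 switched isotypes were rare. A UMI of Ighg2b, Ighg2c, Ighg3 or Igha occurred in 45 cells (2.14%), and 3 cells (0.143%, interval 0.0485 to 0.418%) had at least 5 such UMIs and more of them than of Ighm and Ighd. The first carried 802 Ighg2b UMIs (library 1), the second 5 Ighg2b UMIs (library 5) and the third 9 Igha UMIs (library 6). Ighg1 and Ighe were not analysed here, so these shares leave out cells switched to IgG1 or IgE.

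A large part of the pooled antibody counts came from few cells. In 8 cells (2 in library 1, 1 in library 5 and 5 in library 6), Jchain, the joining chain of secreted IgM and IgA, was at 167 to 1506 UMIs, whereas no other Ms4a1 B cell had more than 1. In 7 of the 8 Ms4a1 was at 1 or 2 UMIs. The cell with 802 Ighg2b UMIs was the remaining 1 of the 8, with 11 Ms4a1 UMIs. The 8 cells held 43.5% of the Igkc UMIs and 34.9% of the Ighm UMIs of all Ms4a1 B cells. Ighm stood at 4989.6 CPM and Igkc, the kappa constant gene, at 10503 over all Ms4a1 B cells, and at 3545 and 6516 CPM without these 8 cells and the 98 with neutrophil RNA, 1 of which was in both sets. Without them Ighm over libraries ran from 2926 to 3883 CPM in place of 2814 to 9711. Of the 7 plasma cell genes on the list, 4 were at 50 CPM or more over all Ms4a1 B cells. Prdm1 and Sdc1 were at 7.75 and 10.4 CPM. Mzb1, Irf4 and Xbp1 were still at 182, 265 and 55.6 CPM without both sets of cells.

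Each B cell as a rule expresses either a kappa or a lambda light chain. With at least 10 UMIs of Igkc and the lambda constant genes Iglc1, Iglc2 and Iglc3 together, 2043 cells could be assigned. At a kappa share of 90% or more 531 were called kappa, at 10% or less 156 were called lambda, and 1356 (66.4%) lay between. Among called cells 77.3% were kappa (interval 74.0 to 80.3%), with 82.7, 78.6, 79.5, 74.6, 74.0 and 73.7% in libraries 1 to 6. The Wilson interval of every library held the pooled value. Each library is part of that value and the intervals are wide, such as 63.4 to 83.3% in library 4, so this shows little. A kappa share over 50% was found in 82.3% of the 2043 cells. The limits thus left out more kappa-rich than lambda-rich cells, and 77.3% holds for called cells only. The kappa share per cell had no gap: its median was 79.3%, 468 cells lay between 80% and 90%, and 29 between 10% and 20%. Cells between the limits had a median of 35 Igkc and 13 lambda UMIs, kappa cells 44 and 2, and lambda cells 0 and 51. Igkc was detected in 1.20% of T cells against 94.0% of Ms4a1 B cells, and Iglc2 was at 0.446 against 1083 CPM. The T cells had been chosen at 0 Cd79a, which leaves out cells with stray B cell RNA, and Ighm was found in 37.2% of the same cells, so these values set no upper limit on the background. Iglc2 and Iglc3 are near copies of each other, so reads may be split between them uncertainly, and the cause of the cells between the limits was not tested.

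Light chain calls were also set beside Cd93 and Fcer2a, the markers of immature and mature cells. Of the 156 lambda cells, 26.9% had Cd93 without Fcer2a and 14.7% had Fcer2a without Cd93, against 18.6% and 31.3% of the 531 kappa cells, with median depths of 4857 and 5785 UMIs. By library, the share with Fcer2a without Cd93 was lower in lambda cells in 6 of 6, from 5.56 to 22.2% against 21.1 to 40.3% of kappa cells. The share with Cd93 without Fcer2a was higher in lambda cells in 5 of 6, but in library 5 by 20 against 19.7% alone, which 25 lambda cells cannot resolve, and in library 2 it was lower at 20.9 against 28.5%. With 16 to 43 lambda cells in a library these shares are coarse, and the difference was not tested. Variable genes were seldom read by this 3′ assay. A heavy chain variable gene had at least 2 UMIs in 62 cells over 26 genes, led by Ighv1-64 with 6 cells, and a kappa variable gene in 228 cells over 48 genes, led by Igkv1-117 with 47.

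**Figure D4:**
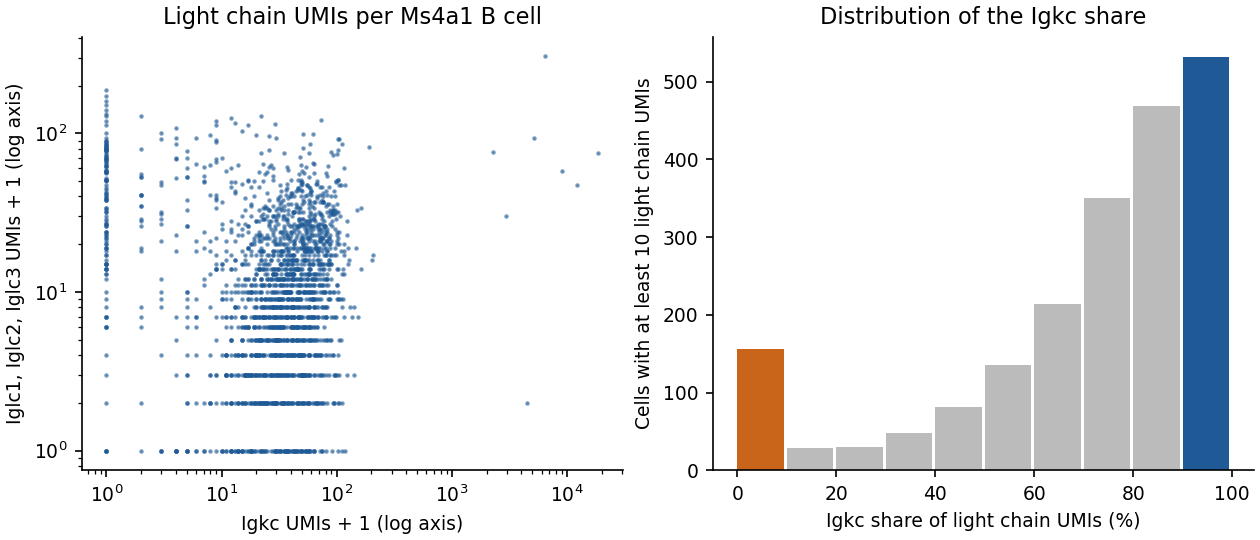
Light chain transcripts in Ms4a1 B cells. Left, each point is 1 of 2105 cells with its Igkc UMIs and its summed Iglc1, Iglc2 and Iglc3 UMIs (1 added, log axes); right, bars count the 2043 cells with at least 10 light chain UMIs by their Igkc share, with the 156 lambda calls in orange and the 531 kappa calls in blue. The 1356 gray cells rise without a gap toward the kappa end, and on the left the 8 cells with high Jchain stand apart at 2287 to 18573 Igkc UMIs.

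Markers of immature and of mature cells were both present. Cd93 was detected in 24.5% of Ms4a1 B cells (17.3 to 29.6% over libraries) and in 6.38% of T cells, or in 11.3% and 1.20% at 2000 UMIs per cell. Fcer2a was detected in 35.8% (27.0 to 40.3%) and in 0.199% of T cells, or in 20.6% and 0.201% at 2000 UMIs. Cells with Cd93 and no Fcer2a UMI, called Cd93 cells, were 397 (18.9%), and cells with Fcer2a and no Cd93 UMI, called Fcer2a cells, were 635 (30.2%). Both genes were detected in 119 cells (5.65%) and neither in 954 (45.3%). Cd93 cells were 13.1% of Ms4a1 B cells in library 4 and 23.5% in library 2, and Fcer2a cells 24.2% in library 5 and 35.1% in library 4. Median depth was 5643 UMIs in Cd93 cells and 5767 in Fcer2a cells. At low counts a UMI of either gene is often missed, so these names stand for UMI calls and not for cell types.

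Cd93 cells and Fcer2a cells differed in many other genes in the same direction in all libraries. Of 3781 genes at 50 CPM or more in either, 13.4% were higher and 15.4% lower in Fcer2a cells in each of the 6 libraries (506 and 584 genes, Cd93 and Fcer2a included); the median log2 ratio over all was -0.02. Without the cells that carried neutrophil or plasma cell RNA the 2 directions summed to 1201 genes in place of 1090, and with all cells thinned to 2000 UMIs to 698. Of the 10 most different genes in each direction named next, 8 and 9 were again in the first 10 without those cells, and 5 and 4 after thinning.

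Higher in Fcer2a cells, by the median log2 ratio over libraries, was first Ccr6, the receptor for the chemokine CCL20, at 110.2 against 13.5 CPM in Cd93 cells (median log2 ratio 2.97). Stat4, a transducer of cytokine signals, was at 802 against 149 CPM (median log2 ratio 2.26, from 2.13 to 3.44). Gpr183 was at 278 against 45.6 CPM, Ms4a4c, of the same gene family as Ms4a1, at 140.4 against 20.9 CPM, and Bcl2a1b, a survival gene of the BCL2 family, at 134 against 22.8 CPM. Setbp1, St6galnac3, Tagap, Gpr174 and Gimap3 completed these 10, with median log2 ratios between 2.18 and 2.48. In Fcer2a cells Ccr6 and Stat4 were above Cd93 cells with no overlap between libraries, 92.4 to 154 against 0 to 38.2 CPM for Ccr6 and 629.9 to 1113 against 48.9 to 224 for Stat4.

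Higher in Cd93 cells was first Atp1b1, a subunit of the sodium pump, at 317 CPM against 31.0 in Fcer2a cells (median log2 ratio -3.05). Vpreb3 was at 1382 against 221 CPM, Sox4 at 375 against 53.0 and Akap12, a scaffold for protein kinase A, at 602 against 97.3. Reln, the secreted protein reelin, was at 77.4 against 7.93 CPM, and its log2 ratio ran from -3.70 to -0.12. Agbl1, among the leading genes of all Ms4a1 B cells, was at 1431 against 246 CPM. Fam189a1, Serinc5, Coq7 and Ppm1e completed the 10. Vpreb3 in the 6 libraries ran from 767 to 2077 CPM in Cd93 cells and from 152 to 295 in Fcer2a cells, with no overlap.

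Cells with neither marker or with both lay between the 2 ends for 20 of the 20 genes named above, which had been chosen for their distance at the ends. Median depth was 5449 UMIs with neither marker and 6598 with both. Vpreb3 was at 1382 CPM in Cd93 cells, 793 with neither marker, 369 with both and 221 in Fcer2a cells. Stat4 followed the opposite order, at 149, 339, 531 and 802 CPM, and H2-Aa likewise, at 637, 1469, 1628 and 2747. Ighd was at 173, 257, 345 and 528 CPM, so for these 4 genes cells with both markers lay nearer to Fcer2a cells than cells with neither did. The same held for 17 of the 20, the exceptions being Setbp1, St6galnac3 and Sox4.

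By list, 10 of 13 mature follicular genes (Fcer2a, which defined the cells, among them) were higher in Fcer2a cells in every library and 0 lower, 8 of 9 MHC class II genes were higher, and 6 of 10 homing receptor genes were higher. Ighd was at 528 CPM in Fcer2a cells (437 to 596 over libraries) against 173 in Cd93 cells (155 to 222). H2-Aa was at 2747 against 637 CPM, Cr2 at 119.9 against 25.0 and Cd86 at 682 against 189. Genes counted as mature that did not follow were S1pr1 (169 against 170.5 CPM, higher in 3 of 6 libraries), Klf2 (941 against 1168, higher in 1 of 6) and Tnfrsf13c (179.8 against 308, higher in 1 of 6). Without both sets of cells Tnfrsf13c was lower in 6 of 6 libraries (191 against 348 CPM), so that 10 mature genes were higher and 1 lower. Klhl14, a marker of the whole population, was lower in Fcer2a cells at 283 against 610.1 CPM. Of 8 dissociation and immediate-early genes, 3 were also higher in Fcer2a cells in every library and 1 was lower. Over all genes the shares were 13.4 and 15.4%, and a part of digestion in the level of Cd86 was not tested.

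In the other direction, 8 of 12 early and immature genes (Cd93 among them) and 9 of 13 transcription factors were lower in Fcer2a cells in every library, and 0 of either list higher. Without both sets these counts were 9, with Cd38, and 10, with Pou2f2, where 18.6% of all genes were lower in place of 15.4%. Myb was at 32.0 against 163 CPM, Ebf1 at 4105 against 6429, Bach2 at 2738 against 4323 and Spib, an ETS factor of B cells, at 223 against 550.3. The receptor gene Cd72 was at 220.2 against 593 CPM and Cd24a at 300.0 against 598. Ighm was at 2260.3 against 6617 CPM, and at 2379 against 4566 without the Jchain cells, 2 of which were Cd93 cells, and the cells with neutrophil RNA, lower in 6 of 6 libraries both ways. Igkc was lower in Fcer2a cells in 6 of 6 libraries over all cells and in 5 of 6 without them (5681 against 6992 CPM). None of the 7 genes of the PEPITEM route differed in 1 direction in every library, with Ywhaz at 369 against 406 CPM.

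**Figure D5:**
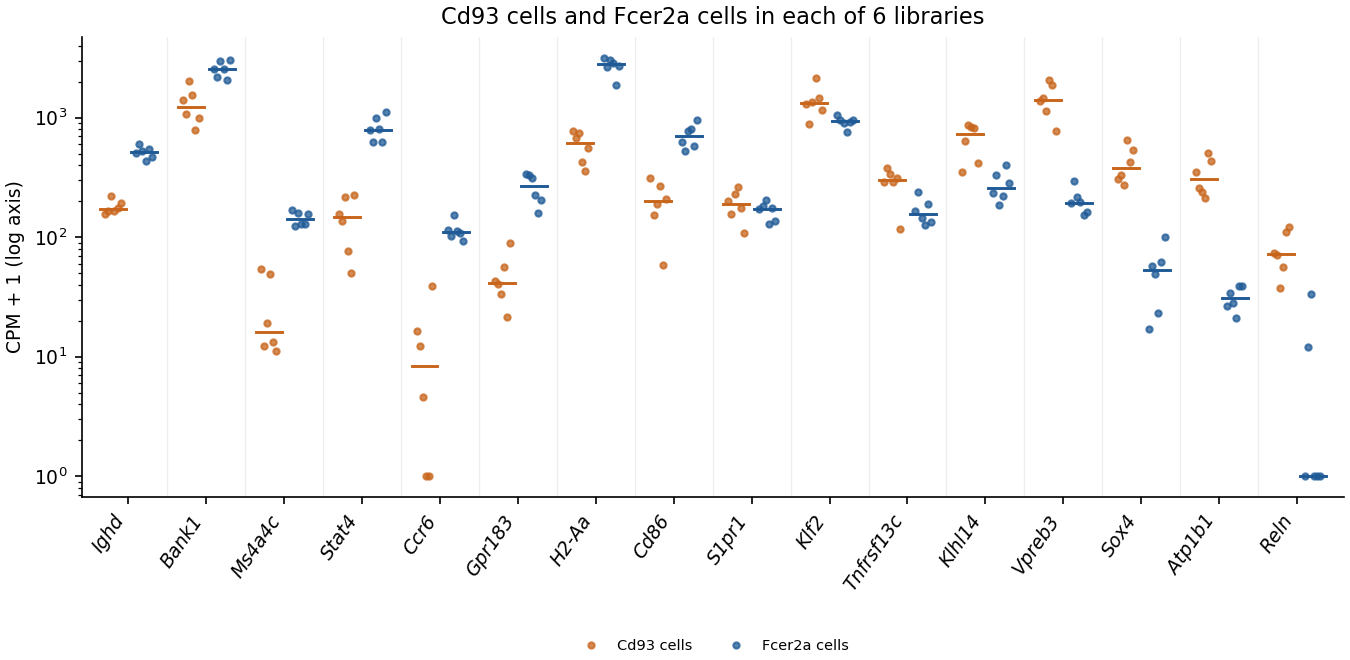
Levels of 16 genes in Cd93 cells and Fcer2a cells. Each point is 1 of 6 libraries of unknown treatment, in CPM with 1 added on a log axis, and each bar the median; from Ighd to Cd86 the 8 genes on the left are higher in Fcer2a cells in each library, S1pr1 and Klf2 overlap, and Klhl14, Vpreb3, Sox4, Atp1b1 and Reln are lower in Fcer2a cells in each library.

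Vpreb3 and Ccr6 stood at opposite ends of this split, and the sequence before their start sites is shown because each holds the octamer motif, the site bound by Oct factors and known from antibody gene promoters. The motif was searched as ATGCAAAT and its reverse complement ATTTGCAT on windows of 250 bases before to 50 after each start (RefSeq, GRCm38.p6), and capitals mark it. It lies 45 bases before the RefSeq start of Vpreb3 and 68 before that of Ccr6. In GENCODE vM21 a transcript of each gene begins at that same base, Vpreb3-201 at base 75948300 of chromosome 10 and Ccr6-207 at base 8236043 of chromosome 17, but another Vpreb3 transcript begins upstream at base 75943057, so the Vpreb3 window lies inside the longer gene model, and other Ccr6 transcripts begin downstream.
Vpreb3, chr10:75948180-75948299, plus strand, 120 bases: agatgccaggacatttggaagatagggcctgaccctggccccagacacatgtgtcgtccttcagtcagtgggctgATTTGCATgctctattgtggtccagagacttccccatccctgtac
Ccr6, chr17:8235923-8236042, plus strand, 120 bases: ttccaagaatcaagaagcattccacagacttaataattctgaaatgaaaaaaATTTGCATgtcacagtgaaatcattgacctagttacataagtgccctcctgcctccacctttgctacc
The motif was found in 1.74% of 32851 windows in all. Of the 10 genes highest in Fcer2a cells 9 had a window and 2 of these held it (Ccr6 and Ms4a4c), and of the 10 highest in Cd93 cells 9 had a window and 1 held it (Vpreb3). A match is a run of letters and not evidence of binding.

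Between libraries most genes were even. Over 3499 genes at 50 CPM or more, the median log2 range from the lowest to the highest library was 0.44. The 5 widest were Jchain, Camp, Ngp, Ltf and Ighg2b, genes of plasma cells and neutrophils, and 99.8% of the Jchain UMIs and 99.8% of the Camp UMIs lay in those cells. Without them the widest was AY036118, at 33.8 CPM in library 6, 262 as the median and 431 in library 1, detected in 57.5% of cells. The chemokine gene Ccl4 ran from 4.23 CPM in library 1 to 108 in library 3 and the cytokine gene Il1b from 10.1 in library 4 to 145 in library 3, but they were detected in 2.75% and 5.70% of cells. Hspa1a, a heat shock gene that tissue digestion can induce, ran from 79.6 CPM in library 3 to 599 in library 6, and Gm10073 from 19.2 in library 3 to 185 in library 6.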

How the data were processed

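The authors sorted CD45+ cells from joint digests, prepared libraries with the Chromium 3′ kit and aligned reads to mm10 with Cell Ranger, version 7 per the labels. They then corrected for ambient RNA with SoupX, removed doublets with DoubletFinder and filtered cells in Seurat. The deposited values are whole UMI counts of 20394 genes in 32953 cells, 486548899 UMIs in all, with 1724738 explicit zeros and no scaling for depth. No further cell was removed.

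Counts were summed over the cells of a population and divided by its total (CPM), pooled and per barcode number. Log2 ratios used 10 CPM added to both sides. Thinning drew 2000 UMIs per cell without replacement. Shares carry Wilson 95% intervals. No model or test was applied, because barcode numbers could not be tied to treatments. CPM and log2 ratios were checked on simulated counts with known changes, and thinning was checked on the counts of the Ms4a1 B cells themselves. Members and gene lists (23 lists, 173 of 175 symbols in the table) were chosen with earlier results of these data known. Named genes were those of the lists, the 10 with the highest fold over other cells, the 10 most different each way between Cd93 and Fcer2a cells (both left out), and the 5 with the widest range between libraries. Coordinates come from GENCODE vM21. Software was Python 3.11.15 with pandas 2.3.3, matplotlib 3.10.9, numpy 2.4.6 and scipy 1.17.1.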

Additional observations from a re-analysis of the deposited data

How the results depend on the processing

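The share of Ms4a1 B cells among all cells (6.39%) was 5.59% with at least 2 Ms4a1 UMIs, 7.02% as the median over libraries, 5.55% without cells that held a UMI of 7 other-lineage genes and 6.07% without the cells with plasma cell or neutrophil RNA, a setting chosen after seeing the data. Leaving out 1 library at a time gave 5.23 to 7.73%, lowest without library 2 and highest without library 5. Thinning to 2000 UMIs lowered the shares with Ighd to 42.8%, Cd93 to 11.3%, Fcer2a to 20.6% and the 4 switched isotypes to 0.0478%, since fewer UMIs are drawn. Without 1 library these shares ran over 65.3 to 67.4%, 22.1 to 25.2% (lowest without library 2), 35.2 to 37.2% and 0.110 to 0.211%. The kappa share was 84.1% with limits of 0.8 and 0.2, a construction that adds more kappa-rich than lambda-rich cells, and 76.3 to 78.2% without 1 library. Of the listed genes 53 were above Rag1 cells in every library, 55 to 62 over 5 libraries, 58 as means over cells and 59 without plasma cell and neutrophil RNA. Genes of 1 direction between Cd93 and Fcer2a cells numbered 1090, 698 after thinning and 1198 to 1303 over 5 libraries. With 1 CPM added in place of 10, 8 and 4 of the 10 leading genes each way were again among the first 10. Single gene levels left their counting interval in 100 of 173 genes as means over cells and in 101 without those cells. Cell populations were paired within each library by direction alone, and this pairing was given no test. No paired analysis was possible for PBS against PEPITEM because no treatment could be tied to a library. Depth limits Cd93 and Fcer2a calls, which rest on a few UMIs per cell.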
